A study of Mus musculus with 2 samples.

Results

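Cyp1a1 and 6 genes tied to the aryl hydrocarbon receptor (AHR) were followed in endothelial cells (ECs) of the mouse lung, 6 h after melanoma cells or saline were injected. The set of 7 was chosen by gene name from the 32285 genes listed: Ahr, Arnt, Ahrr, Tiparp, Cyp1a1, Cyp1b1 and Nqo1. It was proposed with earlier results of these same libraries known, and every value below is therefore a description with no test.

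AHR is a transcription factor of the bHLH-PAS family that waits in the cytoplasm, held by a chaperone complex, until a small ligand binds it. Ligands include planar aromatic pollutants and breakdown products of tryptophan. The bound receptor enters the nucleus, pairs with ARNT and binds DNA at the core GCGTG near its target genes. Cyp1a1, a cytochrome P450 that oxidises many of these ligands, is the classical target and is widely used as a readout of the pathway. Lung endothelium is a known site of its induction.

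The data are single-cell RNA sequencing counts of 2 libraries, 1 per group, both made from lungs of wild-type C57BL/6 mice. The control mice received PBS and the B16-F10 mice 400000 melanoma cells in 100 µl through the tail vein, and lungs were collected 6 h later. B16-F10 cells come from a melanoma of mouse skin and here carried a green tracker dye. Digested lungs were sorted for Pecam1-positive, Ptprc-negative cells, to which dyed melanoma cells of the injected lungs were added. Mice of 1 treatment were pooled (the labels give 2 per treatment, the study's methods another number), and the methods name young male animals. Each group thus has a single value and no replicate check, and differences between mice, injection, digestion and library cannot be told apart from the treatment.

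Cells with 1000 to 5000 genes and under 20% mitochondrial unique molecular identifiers (UMIs, each marking 1 captured RNA molecule) numbered 8394 in the control and 8321 in the B16-F10 library. After removal of predicted doublets 7830 and 7767 cells remained, with a median of 7510 and 8557 UMIs. The libraries shared 19 cell barcodes. Clusters were named from marker genes. General capillary (gCap)-like cells numbered 4436 in the control and 4196 in the B16-F10 library, and aerocyte (aCap)-like cells 1448 and 976. The smaller classes were vein-like (312 and 311 cells), artery-like (66 and 32) and lymphatic or LEC-like (58 and 51). All 8 endothelial markers were detected in each of these classes, and in the control the summed aCap markers took 9847 of 1000000 UMIs in aCap-like and 410 in gCap-like cells. The summed gCap markers took 8355 in gCap-like and 451 in aCap-like cells.

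Levels are UMIs summed over the cells of a class, per 1000000 UMIs of that class (CPM). Intervals are exact 95% Poisson or binomial intervals that cover counting error only. UMIs are not corrected for transcript length, so levels are compared between classes and libraries, never between genes. A gene was called higher or lower when it differed at least 2-fold and its counting interval did not contain a ratio of 1, among genes with at least 50 UMIs in the class.

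The windows just before the RefSeq starts of 4 members are shown because they differ in the number of AHR core motifs. Whether that number goes with the levels of these genes was not tested. Each is written from the far end to the last base before the start on the strand of the gene, in GRCm38.p6, with GCGTG on either strand in capitals (CACGC where it lies on the other strand).
Cyp1a1, chr9:57697363-57697612, plus strand: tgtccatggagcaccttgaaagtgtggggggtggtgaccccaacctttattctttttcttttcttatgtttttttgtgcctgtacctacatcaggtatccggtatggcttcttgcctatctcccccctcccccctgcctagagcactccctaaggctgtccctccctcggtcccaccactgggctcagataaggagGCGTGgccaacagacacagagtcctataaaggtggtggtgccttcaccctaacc
Ahrr, chr13:74292332-74292581, minus strand: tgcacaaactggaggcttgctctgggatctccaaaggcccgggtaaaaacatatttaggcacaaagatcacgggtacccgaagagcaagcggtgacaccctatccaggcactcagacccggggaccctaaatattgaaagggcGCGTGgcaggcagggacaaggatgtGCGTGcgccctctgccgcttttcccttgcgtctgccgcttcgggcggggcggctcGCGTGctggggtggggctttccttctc
Tiparp, chr3:65528197-65528409, plus strand: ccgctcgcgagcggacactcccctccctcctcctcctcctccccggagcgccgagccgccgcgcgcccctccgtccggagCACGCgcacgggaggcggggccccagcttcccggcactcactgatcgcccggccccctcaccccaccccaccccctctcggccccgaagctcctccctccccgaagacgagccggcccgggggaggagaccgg
Nqo1, chr8:107403207-107403455, minus strand: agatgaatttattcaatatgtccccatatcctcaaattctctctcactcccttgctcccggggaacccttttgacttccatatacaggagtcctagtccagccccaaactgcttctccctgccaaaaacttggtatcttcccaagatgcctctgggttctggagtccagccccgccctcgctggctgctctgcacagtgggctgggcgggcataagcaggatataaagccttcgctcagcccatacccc

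The Cyp1a1 window lies inside the GENCODE gene body, in no exon, and held 1 core, at bases 54 to 50 before the RefSeq start. The Ahrr window held 3, the last of them inside the longer motif TNGCGTG, and the Tiparp window 1. The Nqo1 window held none. Of 32851 promoter windows of 250 bases in the RefSeq table, 28.2% held at least 1 core on either strand, 2.77% held at least 3 and 4.10% held TNGCGTG, which contains the core. The windows of Cyp1b1 and Arnt held 1 core each, so 5 of the 6 members matched in the table held it. Bases of annotated exons were trimmed from the windows of Tiparp (37), Arnt (2) and Nqo1 (1). The known xenobiotic response elements of Cyp1a1 lie further upstream than this window. A match of these letters is not a bound site, and their absence says nothing of the factor.

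Cyp1a1 was higher in the B16-F10 library than in the control in capillary and vein-like cells, with the largest class ratio in aCap-like cells. The gCap-like cluster 3 reached the same log2 ratio, 2.07, at a lower level. The vein-like log2 ratio of 0.36 was 0.02 once cells with other types' markers were left out. Ahr itself was lower in capillary and vein-like cells. In artery-like and LEC-like cells the Ahr ratio was also below 0, with intervals that contained no difference. Nqo1 and Tiparp were higher in both capillary classes, and Arnt was slightly lower. Ahrr and Cyp1b1 were close to undetected in capillaries in either library.

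**Figure D1:**
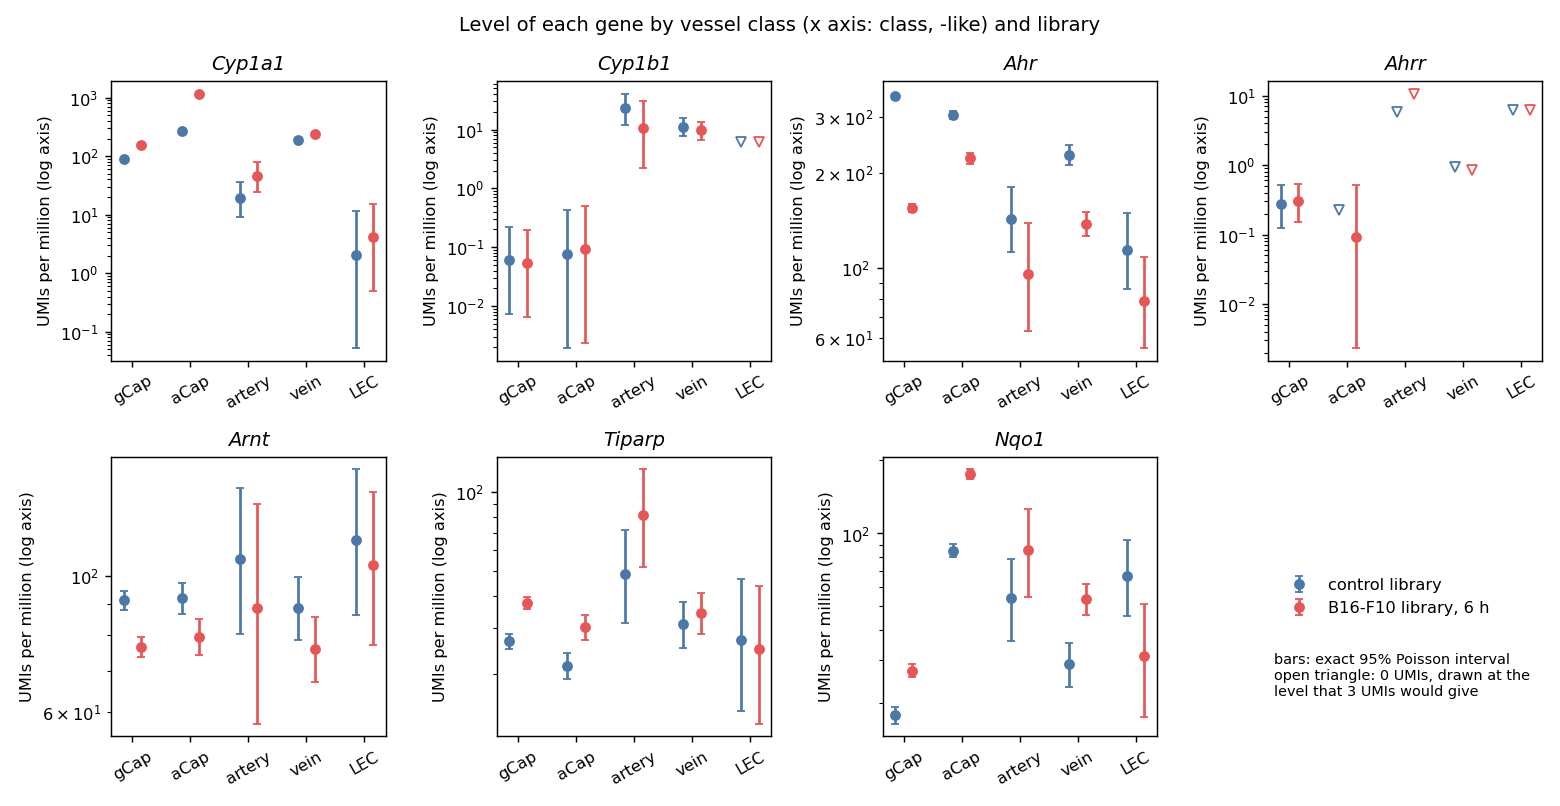
Level of each member in CPM (log axis) in 5 vessel classes, for the control and B16-F10 libraries, with exact 95% Poisson intervals as bars. In aCap-like cells Cyp1a1 lay at 272 and 1143, and the Ahr points lie lower in the B16-F10 library, with overlapping bars in artery-like and LEC-like cells.

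Cyp1a1 (chr9:57687928-57703824, plus strand, GRCm38) was read most in aCap-like cells. Its level there was 272 CPM (263 to 281, from 3567 UMIs) in the control and 1143 CPM (1123 to 1163, from 12475 UMIs) in the B16-F10 library. The B16-F10 level was 4.20-fold higher, a log2 ratio of 2.07 (2.02 to 2.12), and placed Cyp1a1 at rank 52 from the top among the 11106 genes measured in the class. Aerocytes are the large, thin capillary cells that take part in gas exchange.

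In gCap-like cells Cyp1a1 lay at 90.8 CPM (87.5 to 94.1) in the control and 155.5 CPM (151.5 to 159.6) in the B16-F10 library. The log2 ratio was 0.78 (0.71 to 0.84), a 1.71-fold difference, which did not reach the 2-fold limit. The gCap cells are the capillary cells that carry Gpihbp1 and Plvap and can renew the bed. The aCap-like level was 3.00-fold that of gCap-like cells in the control and 7.35-fold in the B16-F10 library. The log2 ratio of aCap-like cells exceeded that of gCap-like cells by 1.29 (1.21 to 1.38).

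Vein-like cells held 188 CPM of Cyp1a1 in the control and 242 CPM in the B16-F10 library, a log2 ratio of 0.36 (0.21 to 0.52). Their control level was 2.07-fold that of gCap-like cells, whereas their ratio was 0.41 smaller on the log2 scale. The vein-like ratio was 0.02 once cells with any UMI of mural, platelet, myeloid or pigment markers were left out, which kept 135 and 89 cells. The summed red cell markers of the class (5 genes, all higher) went from 531 to 3357 CPM, and cells with them were not left out in that setting. The estimated supply of free RNA is given below, and the part of other cells' RNA in this ratio was not tested further.

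Artery-like cells gave 10 Cyp1a1 UMIs in the control and 13 in the B16-F10 library, 19.4 and 46.1 CPM, and the interval of the log2 ratio of 1.25 ran from -0.05 to 2.60. LEC-like cells gave 1 and 2 UMIs, at or under the floor of 3 counts, and no ratio was formed. In the control the order of the levels was aCap, vein, gCap, artery and LEC, and the same order held in the B16-F10 library. No 2 neighbours in that order had overlapping counting intervals between aCap, vein, gCap and artery.

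Cyp1a2, the nearest relative of Cyp1a1, lies 4225 bases away on the opposite strand. It gave 2 UMIs in the control and 7 in the B16-F10 library over all ECs, where Cyp1a1 gave 7636 and 20141.

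**Figure D2:**
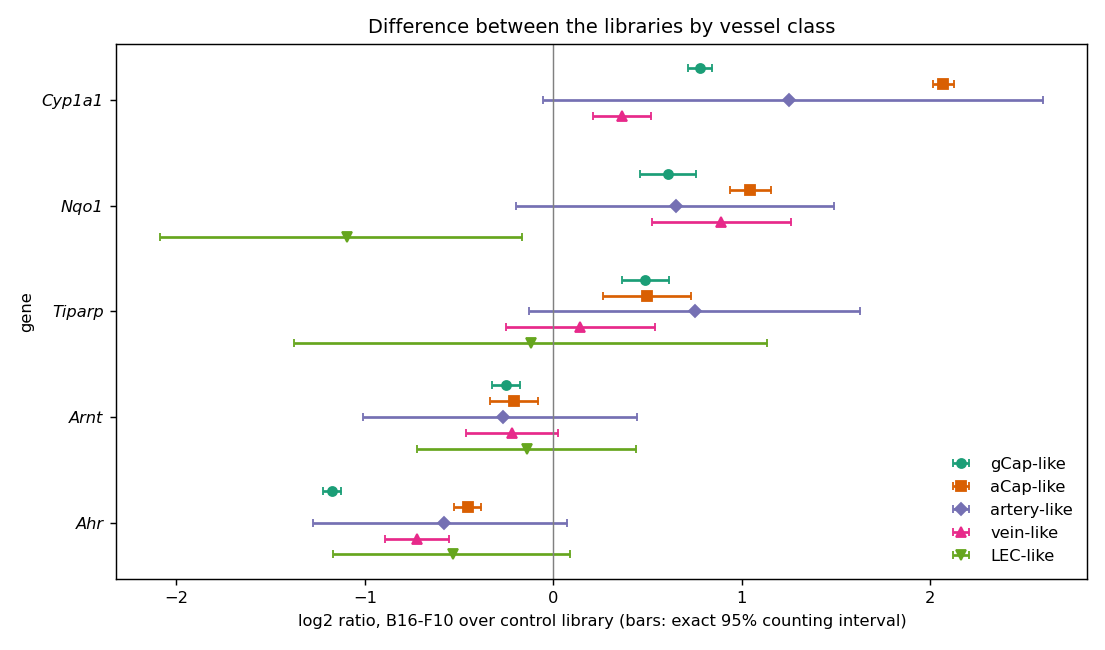
Log2 ratio of the B16-F10 over the control library for Cyp1a1, Nqo1, Tiparp, Arnt and Ahr in 5 vessel classes. Bars are exact 95% counting intervals. Members at or under 3 UMIs in both libraries have no point, and Ahrr and Cyp1b1 are not drawn. Cyp1a1 in aCap-like cells stands at 2.07, and the bars of Ahr lie below 0 in gCap-like, aCap-like and vein-like cells and reach past 0 in the other classes.

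The Cyp1a1 difference in aCap-like cells was mainly one of how many cells carried the transcript. With each cell thinned to 2000 UMIs, at least 1 Cyp1a1 UMI was found in 222 of 1430 cells from the control (15.5%, 13.7 to 17.5) and in 685 of 970 from the B16-F10 library (70.6%, 67.6 to 73.5). Without thinning the class reached 22.4% and 88.4%, its median cell holding 9149 and 11332 UMIs. After thinning, at least 5 UMIs were held by 3.43% of all control and 18.4% of all B16-F10 cells of the class. Of the 222 and 685 cells with a Cyp1a1 UMI, 144 and 479 held at least 2, and 49 and 178 at least 5. The highest single cells were alike at 17 and 19. In the control, the 10% of aCap-like cells with the most held 88.6% of all Cyp1a1 UMIs of the class, and in the B16-F10 library 35.4%.

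The pattern in gCap-like cells was flatter. At least 1 UMI was held by 512 of 4377 cells in the control (11.7%, 10.8 to 12.7) and 966 of 4168 in the B16-F10 library (23.2%, 21.9 to 24.5). Without thinning these were 22.5% and 50.4%, with 7266.5 and 8457.5 UMIs in the median cell. At least 5 UMIs were seen in 0.206% and 0.216%, 9 cells of each library. Vein-like cells lay at 26.0% and 33.1%.

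Other cells gave the background of these shares. After the same thinning, from median depths of 8102.5 and 9621 UMIs, 0 of 58 LEC-like cells in the control and 1 of 51 in the B16-F10 library kept a Cyp1a1 UMI. Of melanoma-like cells, thinned from a median of 8039.5 UMIs, 0 of 77 kept one, and a limit of 3 counts allows a share of up to 3.90%. Barcodes with 1 to 100 UMIs, which hold free RNA, carried Cyp1a1 at 162 CPM in the control and 308 CPM in the B16-F10 library. From the estimated free share of each class, such RNA would supply 4.96 and 7.33 CPM in aCap-like cells and 3.13 and 9.73 CPM in gCap-like cells, under the levels measured. In vein-like cells the estimated supply was 1.63 and 20.7 CPM, beside the 188 and 242 CPM measured. In LEC-like cells it was 3.08 and 11.4 CPM, above the measured 2.08 and 4.16 CPM. Macrophage/monocyte markers, which enter that estimate, took 507 and 723 CPM in LEC-like cells, with 6 and 5 of the 8 at 0.

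**Figure D3:**
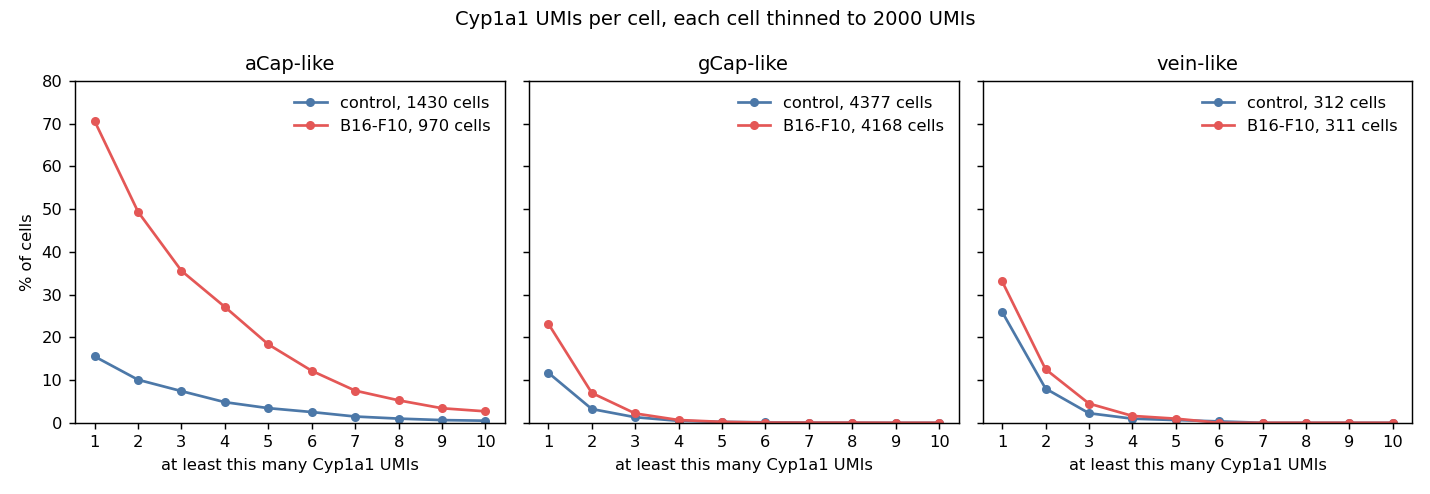
Share of cells (%) with at least 1 to 10 Cyp1a1 UMIs in gCap-like, aCap-like and vein-like cells of each library, each cell thinned to 2000 UMIs. The aCap-like curves start at 15.5% (control) and 70.6% (B16-F10), and the gCap-like curves at 11.7% and 23.2%.

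Both aCap-like clusters showed the higher Cyp1a1 level. In cluster 2, with 807 control and 776 B16-F10 cells, it was 257 CPM and 1195 CPM, a log2 ratio of 2.22. In cluster 9, with 641 and 200 cells and led by Tmeff2 and Rgs6, it was 302 CPM and 909 CPM, a ratio of 1.59. Cluster 9 made up less of the B16-F10 class than of the control class, and leaving it out gave the class ratio of 2.22.

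The 6 gCap-like clusters all had a higher Cyp1a1 level in the B16-F10 library, with log2 ratios from 0.40 to 2.07. Cluster 3 moved from 36.0 to 152 CPM and cluster 0 from 69.4 to 213 CPM. The cluster 3 ratio of 2.07 equalled that of the aCap-like class, at a lower level in both libraries. Cluster 0, at 1.62, lay beside aCap-like cluster 9, at 1.59. Cluster 4, whose control level of 153 CPM was the highest of the 6, reached 203 CPM. Cluster 7, led by genes such as Lalba, Tmem252 and Adamts9 and made of 50 control and 888 B16-F10 cells, had the lowest B16-F10 level of the 6, at 104 CPM.

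Cluster 12, an endothelial cluster without a vessel name and with Hbegf as its leading gene, held 12 control and 363 B16-F10 cells. Its B16-F10 cells carried Cyp1a1 at 122 CPM, and its control cells gave 2 UMIs in all. Among endothelial clusters not mixed with other types' markers, clusters 7 and 12 held the most additional cells in the B16-F10 library. Both carried less Cyp1a1 in that library than the gCap-like class as a whole at 155.5 CPM.

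**Figure D4:**
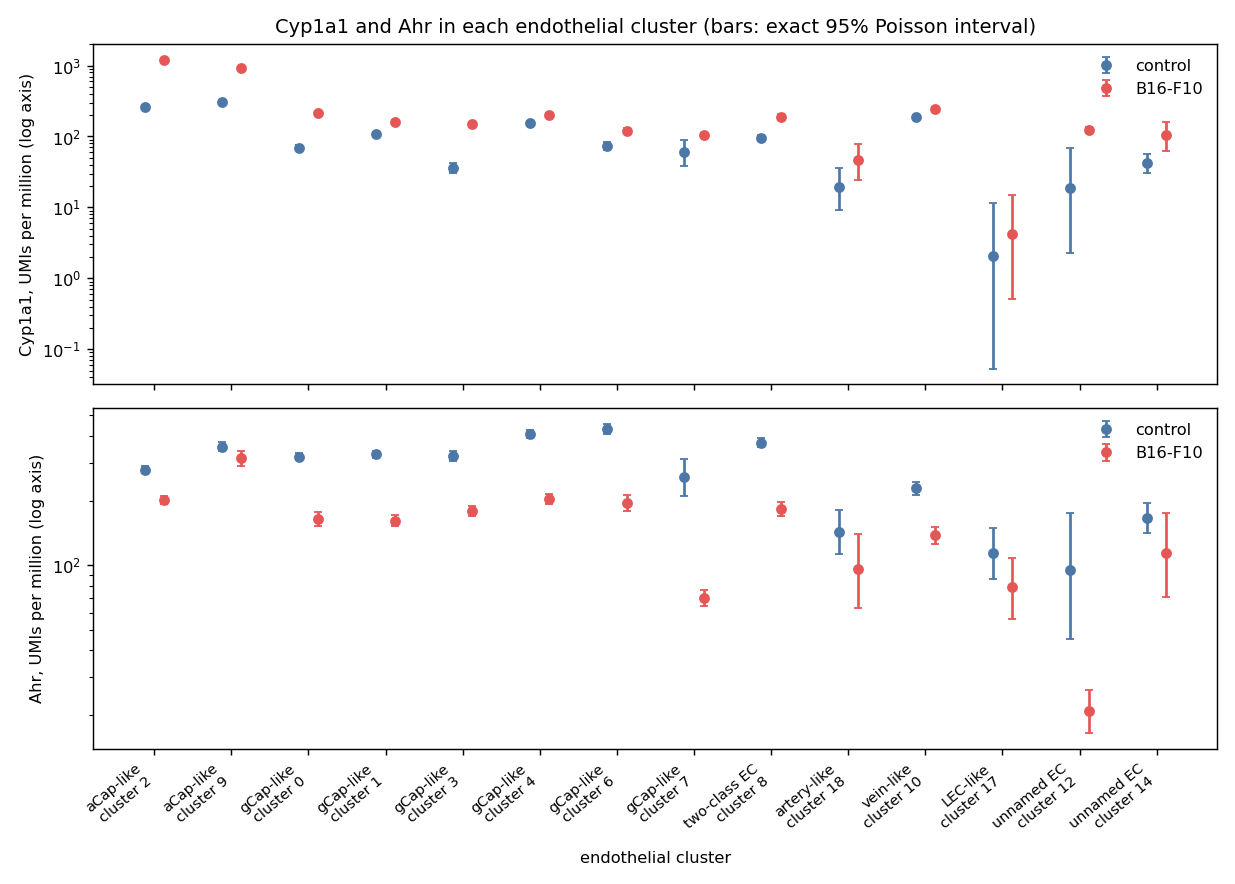
Cyp1a1 and Ahr in CPM (log axes) in each endothelial cluster not mixed with other types' markers, for the control and B16-F10 libraries. Bars are exact 95% Poisson intervals. Cyp1a1 is highest in clusters 2 and 9, and Ahr in B16-F10 cells is lowest in cluster 12, at 20.9.

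Ahr (chr12:35497974-35535038, minus strand) encodes the receptor. Its exons overlap those of the noncoding gene Gm48236 on the other strand, which the files also list, and whether counting used strand is not given in the sources used here. In gCap-like cells it lay at 349.6 CPM in the control (11539 UMIs) and 154.9 CPM in the B16-F10 library (5687 UMIs). The level was 2.26-fold lower, a log2 ratio of -1.17 (-1.22 to -1.13), at rank 194 from the bottom of 13095 genes.

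The share of gCap-like cells with an Ahr UMI, thinned alike, was 47.4% in the control and 26.1% in the B16-F10 library. In cluster 7 Ahr moved from 257 to 70.4 CPM. Without that cluster the class ratio was -0.96, just short of 2-fold, and at the finer clustering resolution of 1.6 it was -0.97. The other 5 gCap-like clusters had ratios from -1.15 to -0.85.

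The aCap-like cells had an Ahr level of 304.5 CPM in the control and 222 CPM in the B16-F10 library, a log2 ratio of -0.45 (-0.53 to -0.38). That ratio was 0.72 (0.63 to 0.81) less negative than in gCap-like cells, so that the class order turned over. The control level was lower in aCap-like than in gCap-like cells, and the B16-F10 level was higher. Leaving out cells with other types' markers gave -0.29.

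Ahr moved from 228 to 138 CPM in vein-like cells, a log2 ratio of -0.72 (-0.89 to -0.56). The 74 and 27 UMIs of artery-like cells gave 143 and 95.7 CPM, and the 55 and 38 UMIs of LEC-like cells 114 and 79.0 CPM, with intervals that took in no difference in both. Cluster 12 had the lowest level of any endothelial cluster in the B16-F10 library, 20.9 CPM from 75 UMIs. Macrophage-like cells, few in number, carried 57.9 CPM in the control from 6 UMIs and 140 CPM in the B16-F10 library from 78.

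Arnt (chr3:95434388-95497240, plus strand), the DNA-binding partner that AHR shares with the hypoxia factors, varied least between classes. Its control level ranged from 88.5 CPM in vein-like to 114 CPM in LEC-like cells. In gCap-like cells it was 91.2 CPM in the control and 76.6 CPM in the B16-F10 library, a log2 ratio of -0.25 (-0.33 to -0.18). In aCap-like cells it was 91.8 and 79.4 CPM, a ratio of -0.21 (-0.34 to -0.08). Without cluster 9 the aCap-like ratio was -0.01, and thinning gave -0.13 in gCap-like cells.

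Ahrr (chr13:74211118-74292331, minus strand) encodes the repressor that AHR induces and that competes with it for ARNT. It gave 13 UMIs in all control ECs and 12 in all B16-F10 ECs. In gCap-like cells 9 and 11 UMIs gave a log2 ratio of 0.14 (-1.27 to 1.59), and in aCap-like cells there were 0 and 1. A difference in Ahrr was not detectable at this depth, whatever the number of core motifs in its window.

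Tiparp (chr3:65528410-65555518, plus strand), an ADP-ribosyltransferase that AHR induces and that acts back on the receptor, was higher in both capillary classes. In gCap-like cells it lay at 26.7 CPM in the control and 37.5 CPM in the B16-F10 library, a log2 ratio of 0.49 (0.37 to 0.61). In aCap-like cells it lay at 21.5 and 30.3 CPM, a ratio of 0.50 (0.26 to 0.73). The difference between these ratios was 0.01 (-0.25 to 0.27). The corresponding difference for Cyp1a1, given above as 1.29, lies outside that interval.

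The Tiparp ratio was 0.14 (-0.25 to 0.54) in vein-like cells, 0.75 (-0.13 to 1.63) in artery-like cells and -0.12 (-1.38 to 1.13) in LEC-like cells. In gCap-like cells it was 0.31 at the finer clustering and 0.36 with cells of at least 500 genes. Cluster 7 had Tiparp at 52.0 CPM in the control, from 20 UMIs, and 48.9 CPM in the B16-F10 library.

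Cyp1b1 (chr17:79701537-79715061, minus strand), a P450 that AHR also induces in many cells, was seen outside the capillaries. It gave 2 UMIs in gCap-like cells of either library and 1 in aCap-like cells of either library. Vein-like cells gave 36 UMIs in the control and 34 in the B16-F10 library, 11.2 and 9.72 CPM, and artery-like cells 12 and 3. The vein-like log2 ratio was -0.20 (-0.92 to 0.52). Mural markers in vein-like cells summed to 156 CPM in the control and 95.5 CPM in the B16-F10 library. A cluster that mixed endothelial with mural and fibroblast markers gave 19 and 7 Cyp1b1 UMIs. The cluster that mixed endothelial with mural markers alone gave 1 and 0. Without cells that held mural, platelet, myeloid or pigment markers the vein-like counts were 11 and 20 UMIs, and the ratio was 1.31. Cells with fibroblast markers were not left out there. The direction for Cyp1b1 therefore depends on which cells are kept.

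Nqo1 (chr8:107388225-107403206, minus strand) encodes a quinone reductase that both AHR and NRF2, the factor of the oxidative stress response, can induce. Like Cyp1a1 it was read most in aCap-like cells, at 85.0 CPM in the control (1114 UMIs) and 175.5 CPM in the B16-F10 library (1916 UMIs). The log2 ratio was 1.05 (0.94 to 1.15), at rank 218 of 11106 genes. It stood close to the 2-fold limit and fell below it without cluster 9 (0.94), without cells holding other types' markers (0.96) and with no upper limit of genes per cell (0.99). Clusters 2 and 9 had ratios of 0.94 and 1.10.

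In gCap-like cells Nqo1 lay at 17.8 CPM in the control and 27.2 CPM in the B16-F10 library, a log2 ratio of 0.61 (0.46 to 0.76). The aCap-like ratio was larger by 0.44 (0.26 to 0.62). In vein-like cells it moved from 28.9 to 53.5 CPM, a ratio of 0.89 (0.52 to 1.26), and in artery-like cells from 54.2 to 85.1 CPM, with an interval from -0.20 to 1.49. LEC-like cells went the other way, from 66.5 CPM (32 UMIs) to 31.2 CPM (15 UMIs), a ratio of -1.09 (-2.08 to -0.17).

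In the control, cells that held Cyp1a1 were more often cells that held Nqo1, and in the B16-F10 library the counting intervals overlapped. Among thinned aCap-like control cells, 27.9% (22.1 to 34.3) of the 222 with a Cyp1a1 UMI held an Nqo1 UMI, against 10.0% (8.38 to 11.8) of the 1208 without. In the B16-F10 library the shares were 28.3% (25.0 to 31.9) of 685 and 26.7% (21.6 to 32.2) of 285. In gCap-like cells they were 8.40% (6.14 to 11.1) and 2.48% (2.02 to 3.02) in the control. In the B16-F10 library they were 6.00% (4.59 to 7.69) and 4.62% (3.92 to 5.41) there.

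For Ahr the shares in aCap-like control cells were 55.4% with and 41.2% without a Cyp1a1 UMI, and in the B16-F10 library 33.0% and 31.6%. All cells were compared at the same 2000 UMIs, and cells of 1 library share their mice and preparation.

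Read against all genes, few members were called. In gCap-like cells 5 of 7 members reached 50 UMIs, of which 0 were called higher and 1, Ahr, lower, where 3.00% of all genes were called higher and 2.47% lower. In aCap-like cells 2 of 5, Cyp1a1 and Nqo1, were called higher and 0 lower, where 2.18% and 2.07% of all genes were.

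In vein-like cells 6 members were measured and 0 called in either direction, beside 1.67% of genes called higher and 1.00% lower. Artery-like cells had 3 measured members and LEC-like cells 2, and 0 were called, with 1.30% and 2.04% of genes called higher and lower in the former and 1.53% and 2.01% in the latter. Regardless of size, 3 of 5 members (Cyp1a1, Tiparp and Nqo1) were higher in both gCap-like and aCap-like cells, where 45.8% and 50.7% of all genes were. Since the members were proposed from this contrast, nothing is read from these counts.

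**Figure D5:**
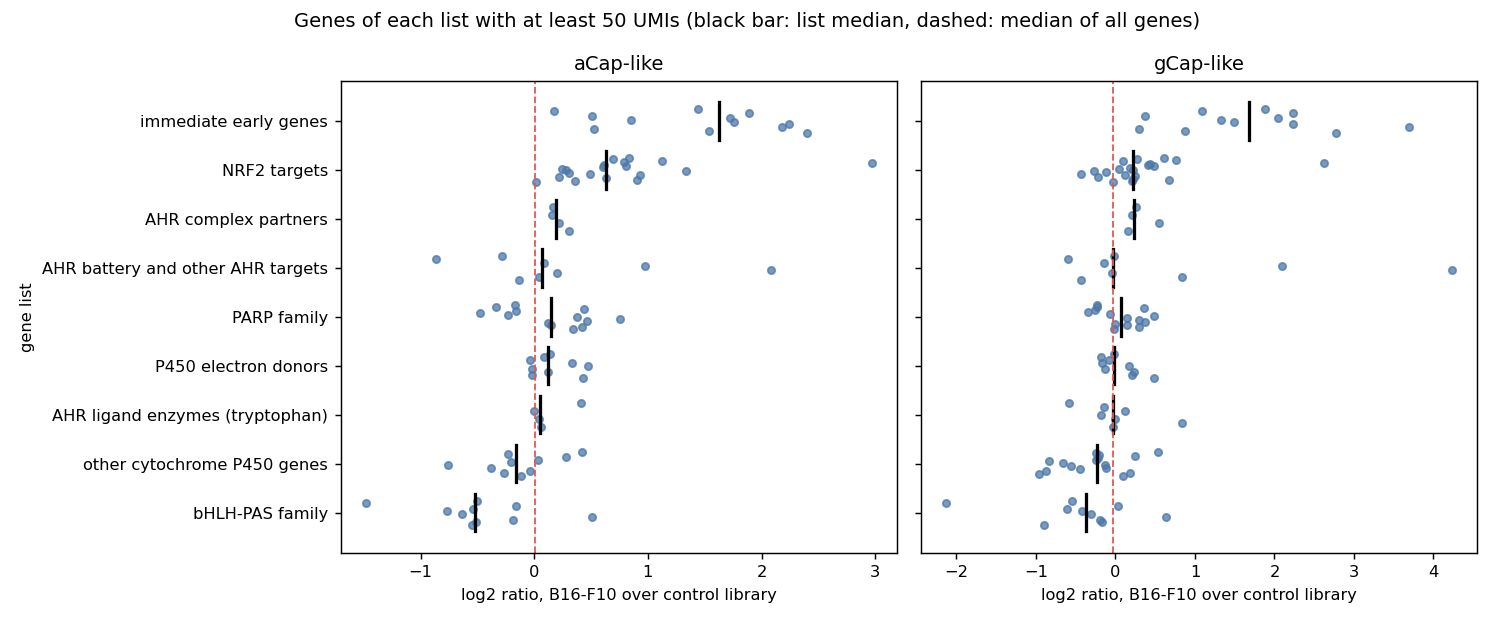
Log2 ratio of the B16-F10 over the control library for each gene with at least 50 UMIs in 9 gene lists, in gCap-like and aCap-like cells; black bars are list medians and the dashed line is the median of all genes. All 19 NRF2 targets lie above 0 in aCap-like cells, and all 12 immediate early genes lie above 0 in both classes.

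The other genes of the pathway moved in different ways. Of the AHR complex partners, the chaperones and cochaperones that hold the receptor, 4 were measured in gCap-like and in aCap-like cells and 0 were called. All 4 lay above 0, with medians of 0.23 and 0.19 against -0.04 and 0.01 for all genes. Hsp90aa1 moved from 142 to 208 CPM in gCap-like cells and from 185 to 214 CPM in aCap-like cells.

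Of 20 further AHR targets, 8 were measured in each capillary class. In gCap-like cells the list median was -0.03 and 0 were called lower. Slc7a5, a carrier of large neutral amino acids, was called higher, at 0.364 and 1.55 CPM. Vav3, a guanine nucleotide exchange factor, stood at 308 and 204 CPM. In aCap-like cells the median was 0.06 and 0 were called lower. Vav3 stood there at 889 and 489 CPM and Xdh, xanthine dehydrogenase, at 419 and 344 CPM.

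NRF2 targets were counted in the same way, and a difference between classes was not tested. In aCap-like cells 19 were measured, 19 lay above 0, 3 were called higher and 0 lower, and the median log2 ratio was 0.63. The 3 were Slc7a11, the cystine carrier (1.30 to 10.2 CPM), Hmox1, which degrades heme (39.4 to 99.5 CPM), and Srxn1, sulfiredoxin (134 to 292 CPM). Gclm, a subunit of the enzyme that starts glutathione synthesis, moved from 466 to 890 CPM.

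In gCap-like cells 21 NRF2 targets were measured, 16 lay above 0, 1 (Slc7a11, 0.485 to 3.00 CPM) was called higher and 0 lower, and the median was 0.22. Ftl1, the ferritin light chain, moved from 887 to 1418 CPM. In vein-like cells 7 of 17 lay above 0, 0 were called and the median was -0.07.

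Of the enzymes that make AHR ligands from tryptophan, 7 were measured in gCap-like cells and 0 called. Maoa, a monoamine oxidase, stood at 134.8 and 121.7 CPM there. Ido1, which opens the tryptophan ring, moved from 1.42 to 2.53 CPM there and stood at 5.34 and 5.50 CPM in aCap-like cells, where 4 were measured and 0 called.

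Among relatives of AHR and ARNT in the bHLH-PAS family with their coactivators, 10 were measured in each capillary class, 0 were called higher and 1 lower. That gene was Per2 of the circadian clock, at 1.67 and 0.381 CPM in gCap-like cells and 14.6 and 5.22 CPM in aCap-like cells. Medians were -0.37 and -0.52. Arntl, the clock partner, moved from 44.0 to 23.5 CPM in gCap-like cells, whereas Hif1a, the hypoxia factor, moved from 64.8 to 101 CPM.

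Of the PARP family, to which Tiparp belongs, 14 were measured in gCap-like and 13 in aCap-like cells and 0 were called. Parp14 moved from 194 to 250.2 CPM and from 141 to 195 CPM. Of 9 electron donors that P450 enzymes depend on, 0 were called in both classes, and Por, the main reductase, stood at 145.5 and 160.3 CPM in aCap-like cells. Of 99 other P450 genes, 16 were measured in gCap-like and 10 in aCap-like cells and 0 were called. In vein-like cells 1 was called lower and 1 higher. Cyp26b1, which degrades retinoic acid, stood at 76.4 and 20.01 CPM, and Cyp51, an enzyme of sterol synthesis, at 4.66 and 10.6 CPM.

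Many stimuli, tissue digestion among them, induce the immediate early genes. Of 12 measured, 9 were called higher in gCap-like cells and 8 in aCap-like cells, 0 lower, with medians of 1.68 and 1.63. Fos moved from 60.6 to 285.5 CPM in gCap-like and from 48.2 to 228 CPM in aCap-like cells. Egr1 moved from 10.4 to 134 CPM and from 11.7 to 53.2 CPM. Their part in the Cyp1a1 difference was not tested.

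Markers of other cell types also moved between the libraries. The summed melanoma markers (8 genes, 7 higher in both classes) went from 25.4 to 54.9 CPM in gCap-like and from 46.1 to 67.3 CPM in aCap-like cells, 3 of them at 0 in the control and 0 of them in the B16-F10 library. Melanoma-like cells themselves held 7 Cyp1a1 UMIs, 8.45 CPM (3.40 to 17.4). Red cell markers (5 genes) went from 1127 to 1459 CPM in gCap-like cells and from 1992 to 1097 CPM in aCap-like cells, the class with the larger Cyp1a1 ratio. Cells with melanoma markers were among those left out in the values without other types' markers, but cells with red cell markers were not. The part of either in the member ratios was not tested further.

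The genes whose log2 level ran most like that of Cyp1a1 over the 10 values of 5 vessel classes in 2 libraries were Irf1 (Pearson r of 0.979), Tmem176a (0.978), Abi3 (0.974), Clic4 (0.970) and Gabarapl2 (0.970), of 14366 genes compared. These points share their library and depth, and no test was made. Irf1, an interferon-regulated transcription factor, moved from 196 to 321 CPM in aCap-like and from 176 to 216 CPM in gCap-like cells. Among the members, r with Cyp1a1 was 0.655 for Ahr, 0.268 for Nqo1, 0.036 for Cyp1b1, -0.042 for Tiparp and -0.854 for Arnt. Of the 10 Cyp1a1 values behind each r, the LEC-like ones rest on 1 and 2 UMIs, below the upper estimate of free RNA supply, and weigh in all of them.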

How the data were processed

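Raw UMI counts per gene and barcode were deposited by the authors for 2 libraries. The submitters' processing notes name Cell Ranger 7.2.0, Seurat 4.4.0 and mm10, the study's methods an earlier Cell Ranger. Counting of introns, which raises UMIs of long genes, is not given in the sources used here. The libraries held 85794655 (control) and 104978816 (B16-F10) UMIs. Doublets were scored with Scrublet in scanpy 1.11.5, removing 564 and 554 cells at 0.8% per 1000 cells. Cells were clustered (30 principal components of variable genes scaled per library, 20 neighbours, leidenalg 0.10.2 at resolution 0.8), giving 26 clusters. Members, listed genes and the study's response markers (309 genes) were left out of clustering. Clusters mixing endothelial with other markers were left out of the ECs, leaving 7050 and 6335. Members and lists were chosen with earlier results of these data known, and naming thresholds after a clustering had been seen. UMIs were summed per class and library. With 1 library per group no test was made. The intervals were run on simulated Poisson counts, the model they assume, which checks the calculation and not their fit to these data. Named list genes are among the 4 with the largest ratio in size per class, and Cyp1a2 was added as the neighbour of Cyp1a1. A gene of the further AHR targets is not reported here. Other settings were tried for cell limits, scaling, thinning, free RNA, clustering and cells with other types' markers. Coordinates follow GENCODE M21 on GRCm38, promoter sequences RefSeq on GRCm38.p6.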

Additional observations from a re-analysis of the deposited data

Results flagged for a closer look

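Nqo1 went in opposite directions between vessel classes, higher in the B16-F10 library in gCap-like (0.61), aCap-like (1.05) and vein-like cells (0.89, all log2 ratios) and lower in LEC-like cells (-1.09, from 32 and 15 UMIs). This difference was not tested over samples, since each group is 1 library, although the LEC-like and gCap-like ratios differed by -1.70 (-2.60 to -0.80) by counting alone.

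Barcodes outside the cells analysed also differed between the libraries, Cyp1a1 and Nqo1 being higher in each kind and Tiparp higher or lower by kind. In barcodes with 1 to 100 UMIs the log2 ratio was 0.93 for Cyp1a1, 0.49 for Nqo1 and 0.02 (-0.44 to 0.47) for Tiparp. In barcodes with at least 300 and under 1000 genes it was 0.95 for Cyp1a1, from 64.6 to 125 CPM, 0.64 for Nqo1 and -0.89 (-1.68 to -0.11) for Tiparp. In barcodes with over 5000 genes it was 0.70 for Cyp1a1, from 183 to 298 CPM, 0.44 for Tiparp and 0.41 for Nqo1.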

How the results depend on the processing

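Of 155 values of the main member ratios under 12 other settings, 149 kept their direction, and 135 moved by less than the counting interval. The other 6 were all Ahrr in gCap-like cells, whose values ran from -0.83 to 0.49. In artery-like, vein-like and LEC-like cells 153 of 162 further values kept their direction. The log2 ratio of Cyp1a1 in aCap-like cells was 1.93 with no upper limit of genes, 2.28 with thinned cells and 2.22 without clusters mostly of 1 library (chosen after seeing the data). In gCap-like cells it was 0.71, 0.96 and 0.91 in the same settings and 0.93 at resolution 1.6. In vein-like cells it was 0.024 without cells holding other types' markers. Ahr in gCap-like cells was -1.24 with doublets kept, -1.23 with no upper limit, -0.97 at resolution 1.6, -1.12 without cells holding other types' markers and -0.96 without clusters mostly of 1 library. Ahr in aCap-like cells was -0.53 thinned and -0.29 without cells holding other types' markers. Arnt was -0.13 in thinned gCap-like cells and -0.0088 in aCap-like cells without clusters mostly of 1 library. Tiparp in gCap-like cells was 0.36 with at least 500 genes and 0.31 at resolution 1.6, and Nqo1 in thinned aCap-like cells was 1.29. The cause of these moves was not tested.

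Shares of cells with Cyp1a1 at 4000 UMIs and unthinned were 17.4% and 22.5% in control and 36.7% and 50.4% in B16-F10 gCap-like cells, and 20.1% and 22.4% in control and 81.5% and 88.4% in B16-F10 aCap-like cells, since deeper cells show more. Over all lists 12 genes were called higher and 1 lower in each capillary class. At the main limits 3.00% of all genes were called higher and 2.47% lower in gCap-like cells, and 2.18% and 2.07% in aCap-like cells. At a log2 ratio of 0.5 the list counts were 20 and 11 in gCap-like and 27 and 8 in aCap-like cells, and from 10 UMIs 4 and 2 were lower. The share of all genes was not counted at these other limits, so nothing is read from their counts. No paired analysis was possible because there is just 1 library to a group. Depth limits Ahrr, Cyp1b1 and all artery-like and LEC-like values, and classes change membership with the clustering.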
